A study of Mus musculus with 12 samples.

Results

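R1 cells, a mouse embryonic stem cell line from a male of 129/Sv background, were compared in 2 states: cells kept for 6 days in 2i together with 25 µM of an MRE11 inhibitor, and cells at day 0, called primed in the labels. The members were taken by their group labels, with no measured value in the rule: 6 of the 12 libraries of the series, 3 per group. Primed cells had grown in serum with LIF on gelatin and had received no treatment. Cells of the other group received 2i and the inhibitor at once, and neither the inhibitor's name nor its vehicle is stated in the labels. The remaining 6 libraries, 3 from 6 days of 2i alone and 3 from 6 days of 2i with 50 µM inhibitor, are used below only to show where the 25 µM cells stood apart from them. No library came from cells kept in serum to day 6. In the comparison with primed cells, the parts of 2i, the inhibitor, any change of serum or medium and time in culture therefore cannot be told apart. All groups share 1 cell line, so the values describe that line. Nothing states that libraries of 1 group were made from different cultures, so p-values measure a spread that may be technical only.

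2i is a pair of small molecules that block MEK, the kinase that activates ERK, and GSK3, the kinase that marks beta-catenin for destruction. In mouse embryonic stem cells, loss of ERK signalling and gain of beta-catenin signalling favour the naive state, a ground state kept by factors such as Nanog, Klf4 and Tfcp2l1, while ERK signalling drives exit towards the formative and primed epiblast states, marked by Otx2 and Pou3f1. MRE11 is the nuclease of a complex with RAD50 and NBN that processes DNA ends at breaks and acts at stalled replication forks. The series design sets an MRE11 inhibitor against the passage from cells labelled primed to naive cells. The comparison described here gives the distance between the start of that passage and its end when 25 µM inhibitor was present throughout. The word primed is used as the labels give it. Those cells expressed naive factors beside Otx2 and Pou3f1, with Zfp42 at 757 to 911 CPM and Esrrb at 162 to 208 CPM. Fgf5 had 59 counts in their 3 libraries.

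RNA was counted from the 3′ ends of polyadenylated transcripts, as raw counts per gene. The 6 libraries held 5894561 to 7060126 counts, and genes with at least 1 count numbered 19634 to 19987 in primed cells and 18919 to 19420 in 25 µM cells. Levels are CPM, counts scaled to a common library size with TMM factors, given as mean ± SD over n = 3 libraries, with per-library values in the order of the labels' replicate numbers 1, 2 and 3. In every group, the library numbered 1 stood apart from the other two. The chi-square per degree of freedom of its counts against theirs was 9.78 to 13, against 2.63 to 7.28 between libraries 2 and 3, and no pair agreed within sampling noise. Over the 6 libraries, the first principal component held 92.4% of the variance and separated the groups, and the second held 2.63% and separated both libraries numbered 1, at 10.7 and 9.1, from the others, at −5.9 to −3.7. All 12 markers of mouse embryonic stem cells were detected in both groups, and their summed level was 5141 to 5753 CPM in primed and 5375 to 5564 CPM in 25 µM libraries. Single markers moved both ways within that sum. Counts were higher at 25 µM for Nanog (10337 to 21851), Esrrb (3605 to 6358), Fgf4 (2498 to 3602) and Dppa5a (17340 to 21186). They were lower for Utf1 (6588 to 1653), Tdgf1 (16109 to 10725), Dppa4 (4044 to 2471) and L1td1 (10107 to 7887). Sox2, Sall4 and Zfp42 changed little. Pou5f1, a defining marker with pseudogene copies, carried only 158 and 127 counts over the 3 libraries of each group, and its level is uncertain.

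A large part of the transcriptome differed between 25 µM and primed cells. At a Benjamini-Hochberg adjusted p below 0.05 in edgeR's quasi-likelihood test, 5594 of 13230 genes tested were called (42.3%): 2822 were higher (21.3%) and 2772 were lower (21.0%) in 25 µM cells. Without the 4 libraries numbered 1, the counts were 2626 higher and 2720 lower. Small and large changes were not balanced alike. Among called genes, 923 were at least 2-fold higher and 1271 at least 2-fold lower (6.98% and 9.61% of genes tested), 287 and 560 at least 4-fold, and 44 and 119 at least 16-fold. Every 25 µM library lay above every primed library for 25.8% of genes tested and below for 25.5%, the background for each statement below that groups did not overlap. Likewise, 21.3% higher and 21.0% lower are the background for each count of list members called against primed. The median log2 fold change over all genes tested was 0.02, and the medians of single chromosomes ran from −0.06 on chromosomes 15 and X to 0.10 on chromosome 16. A log2 fold change below is 25 µM over primed unless another pair is named, with its standard error (SE) after ±.

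**Figure D1:**
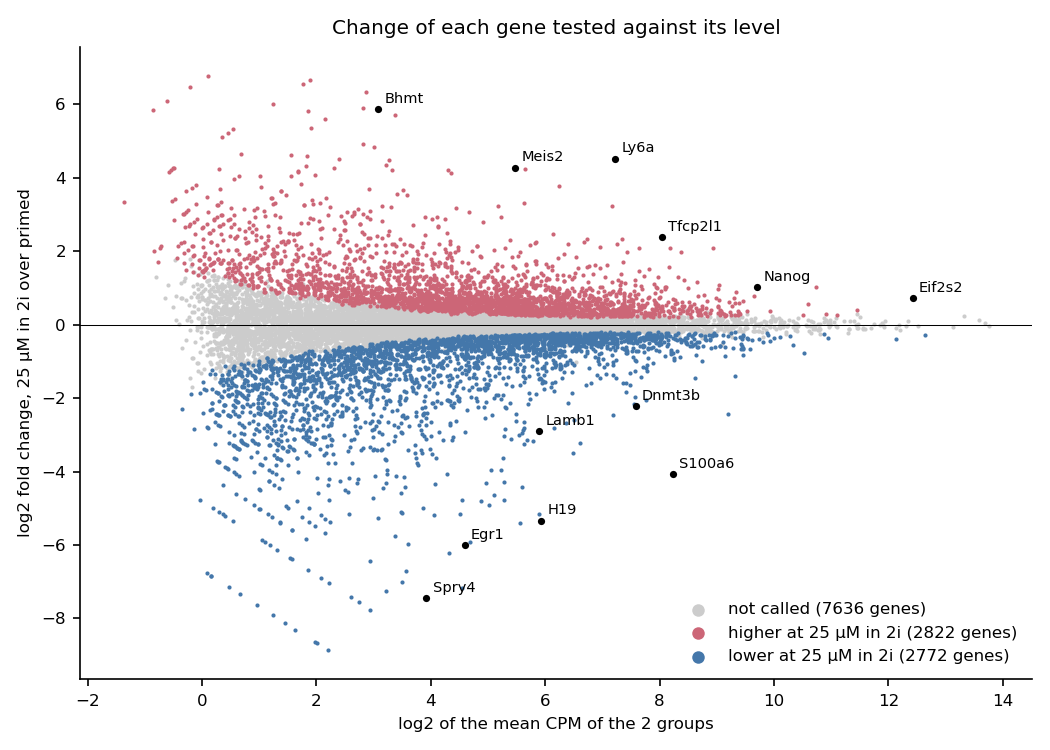
Log2 fold change of 25 µM in 2i over primed cells against level (log2 of the mean CPM of the 2 groups), with 1 point per gene tested; coloured points are the 2822 genes called higher and 2772 called lower, grey points the 7636 not called. Named genes lie at the edges of the cloud: Ly6a, Meis2 and Bhmt above, Egr1, Spry4 and H19 below.

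The largest rises were taken among genes averaging 3 or more log2 CPM over the 6 libraries, which leaves out genes at low levels. Ly6a, which encodes a GPI-anchored surface protein also known as Sca-1 (chr15:74994877-74998031), had 14.3, 11.1 and 12 CPM in primed and 238, 315 and 309 CPM in 25 µM libraries. The groups lay far apart, and the log2 fold change was 4.52 ± 0.17 (edgeR adjusted p = 4.11e-13). Meis2, a homeobox factor that partners Hox proteins, rose from 4.34 ± 0.859 to 84.8 ± 7.97 CPM, by 4.28 ± 0.16 on the log2 scale. Plagl1, an imprinted zinc finger factor, rose by 4.25 ± 0.23, Aspa, which splits N-acetylaspartate, by 4.20 ± 0.22, and Crxos, a homeobox gene of early embryos, by 3.77 ± 0.12. Among the abundant transcripts, Eif2s2, which encodes the beta subunit of translation initiation factor eIF2, rose from 4124 ± 481 to 6846 ± 493 CPM, and Ckb, the brain-type creatine kinase, from 185 ± 17.5 to 792 ± 104 CPM.

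The largest falls were taken with the same limit on level. Esrp1, a splicing regulator of epithelial cells, had 74.1, 97.8 and 105 CPM in primed and 1.57, 2.28 and 2.56 CPM in 25 µM libraries. Every primed library was above every 25 µM library by a wide margin, and the log2 fold change was −5.41 ± 0.20 (edgeR adjusted p = 1.04e-14). S100a6, a calcium-binding protein, had 602, 566 and 535 CPM in primed and 26.5, 37.1 and 36.9 CPM in 25 µM libraries, a log2 fold change of −4.08 ± 0.21. Tmsb4x, the actin-binding thymosin beta 4, fell from 989 ± 143 to 183 ± 14.6 CPM. Slc7a7, an amino acid transporter subunit, fell by 4.92 ± 0.24 on the log2 scale, Plac8 by 4.77 ± 0.23 and Enpp3, an ectoenzyme, by 4.77 ± 0.19. The simple keratins fell as well, and library 1 was the highest of the primed libraries for each. Krt18 had 183, 87.1 and 75.7 CPM in primed and 3.29, 3.25 and 3.12 CPM in 25 µM libraries, and Krt19 had 60.9, 35.3 and 36.6 against 1.1, 0.976 and 1.56 CPM. Both genes were still called without the 4 libraries numbered 1. In bulk samples, fewer cells of a type and less RNA per cell cannot be told apart, here and for every marker below.

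**Figure D2:**
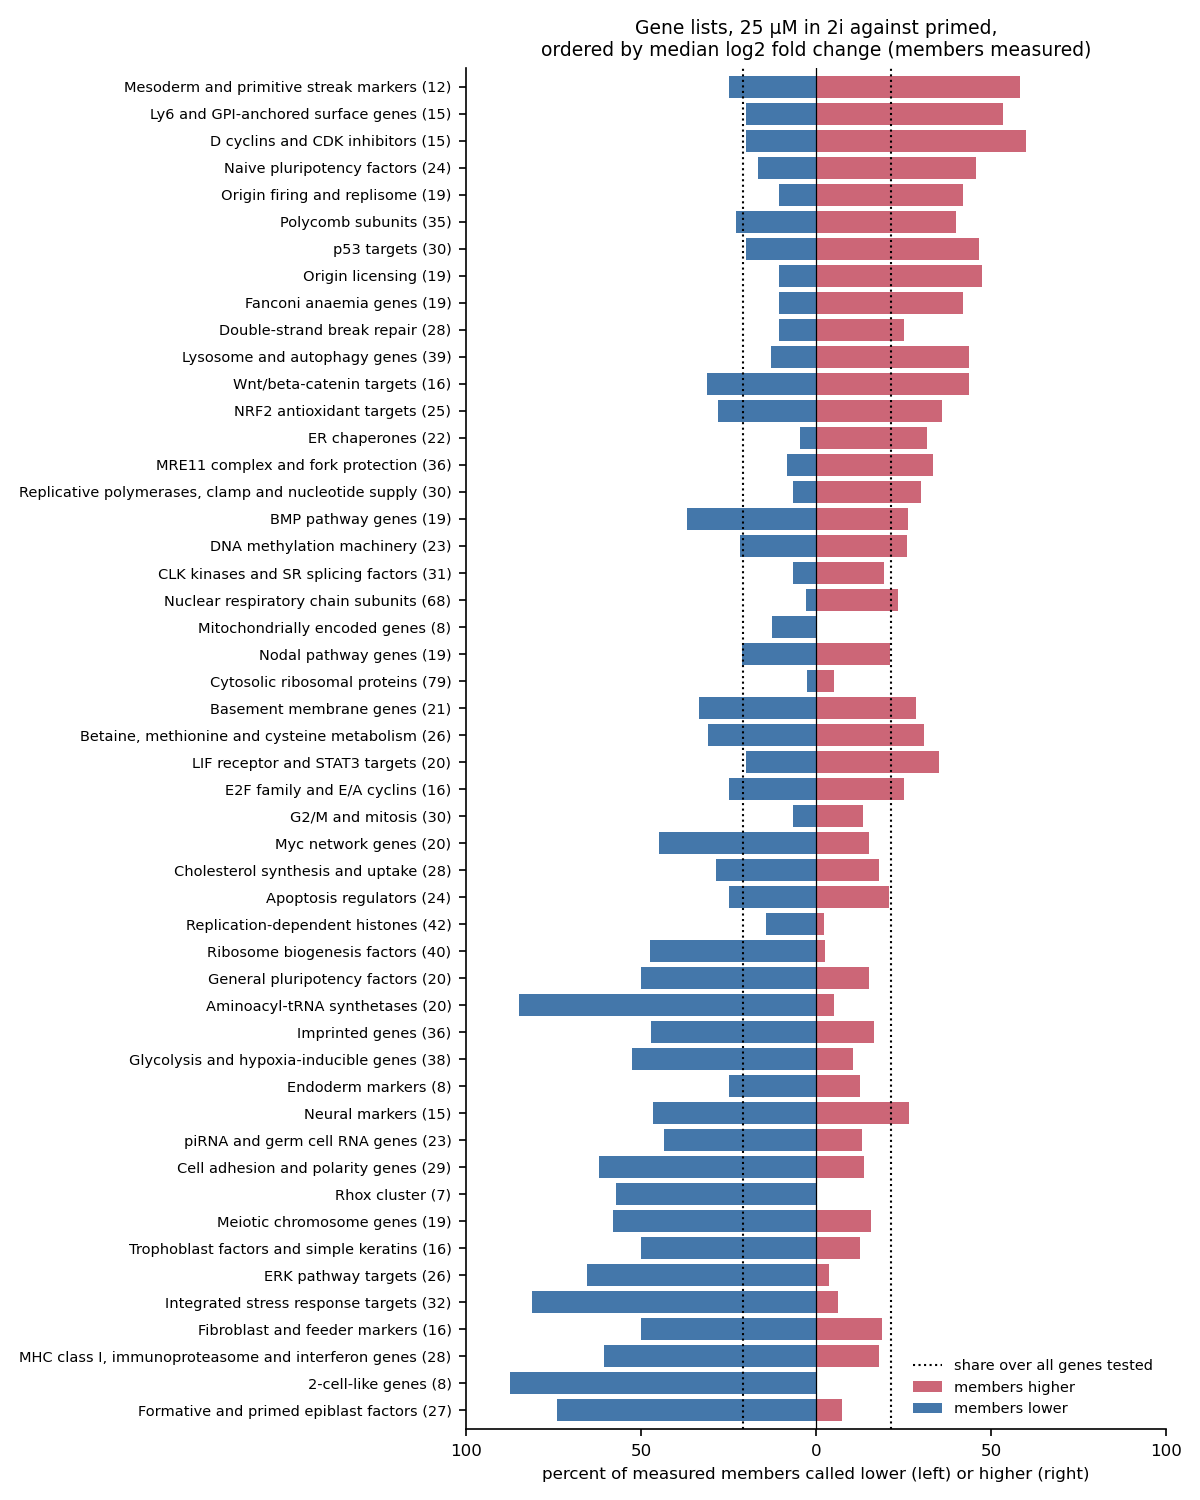
Percent of the measured members of each gene list called higher or lower in 25 µM than in primed cells, with lists ordered by their median log2 fold change; dotted lines mark the share over all genes tested, 21.3% higher and 21.0% lower. Formative and primed epiblast factors and 2-cell-like genes lie at the lower end, mesoderm and primitive streak markers at the upper end.

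Naive pluripotency factors rose more often than they fell in 25 µM cells. Of the 24 that could be measured, 11 rose and 4 fell, and 9 were not called, with a median log2 fold change of 0.30 against 0.02 over all genes. Tfcp2l1, a transcription factor downstream of LIF and of beta-catenin in the naive network, had 82.5, 86.4 and 83 CPM in primed and 427, 441 and 457 CPM in 25 µM libraries. The groups did not overlap, and the log2 fold change was 2.39 ± 0.09 (edgeR adjusted p = 1.04e-14). Nanog, a homeobox factor at the core of the pluripotency network, had 494, 562 and 594 CPM against 1087, 1225 and 1050 CPM, a log2 fold change of 1.03 ± 0.10. Tbx3, a T-box repressor, rose by 2.10 ± 0.13, and Klf4, a Krüppel-like factor, by 1.30 ± 0.12. Prdm14, which represses the de novo DNA methyltransferases, rose by 1.27 ± 0.16, Nr5a2, a nuclear receptor, by 1.15 ± 0.09, and Esrrb, an orphan nuclear receptor, by 0.76 ± 0.09. Klf2 rose by 0.51 ± 0.09. Zfp42, the marker also called Rex1, was at 830 ± 77.4 and 816 ± 93.1 CPM and was not called, and neither were Klf5 (−0.03 ± 0.08) nor the core factor Sox2 (−0.10 ± 0.09).

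Members of the naive list that fell were Myc, Dppa3, Nr0b1 and Tfe3. Myc, the proliferation-driving transcription factor, had 14.8, 9.41 and 13.4 CPM in primed and 1.57, 0.488 and 0 CPM in 25 µM libraries, and its relative Mycn fell from 221 to 81.7 CPM (−1.44 ± 0.15). Dppa3, which shields methylation marks in the zygote, had 155, 203 and 192 CPM in primed and 72, 98.9 and 91.2 CPM in 25 µM libraries. The groups did not overlap, and the log2 fold change was −1.07 ± 0.21 (edgeR adjusted p = 0.00147). Its mean was 124 ± 22.8 CPM in 2i alone and 38.5 ± 12.1 CPM at 50 µM. Against 2i alone the 25 µM difference of −0.50 ± 0.21 had an edgeR adjusted p of 0.342, or 0.000407 with the replicate block, and 50 µM was lower than 25 µM by 1.18 ± 0.23 (edgeR adjusted p = 0.034, and 0.129, 0.152 and 0.0678 without 25 µM library 2, 25 µM library 3 or 50 µM library 2). Among general pluripotency factors, 3 of 20 rose, 10 fell and 7 were not called. Tdh, the threonine dehydrogenase of stem cells, rose by 0.58 ± 0.09, while the let-7 regulators Lin28a and Lin28b fell. Lin28a had 161 to 193 CPM in primed and 15.8 to 22.1 CPM in 25 µM libraries, a log2 fold change of −3.23 ± 0.13.

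Formative and primed epiblast factors were lower as a group: 20 of 27 measured fell, 2 rose and 5 were not called, with a median of −2.59. Otx2, the homeobox factor that drives entry into the formative state, had 210, 263 and 270 CPM in primed and 49.2, 40 and 44.7 CPM in 25 µM libraries. The groups were separate, and the log2 fold change was −2.47 ± 0.11 (edgeR adjusted p = 2.18e-13). Pou3f1, also called Oct6, had 83.6, 70.1 and 68.7 CPM in primed and 2.04, 4.88 and 4.4 CPM in 25 µM libraries (−4.29 ± 0.23). Fgf5, the classic epiblast marker, had 1.86, 4.03 and 3.58 CPM in primed libraries and no count in any 25 µM library, at least 20.5-fold lower against a floor of 3 counts over the group. Tcf15, a helix-loop-helix factor linked to priming, fell by 2.65 ± 0.13, and Grhl2, an epithelial factor, by 2.61 ± 0.20. Sox4 and Sox11, HMG-box factors, and Fgf15, an FGF ligand, fell too, with log2 fold changes of −3.11 ± 0.16, −4.79 ± 0.24 and −4.72 ± 0.30. The exceptions were Nodal, a ligand of the TGF-beta family made by the epiblast, with 33.7, 31.3 and 35.4 CPM in primed and 85.3, 77.3 and 63.3 CPM in 25 µM libraries (1.17 ± 0.11), and Otx1, a low-level relative of Otx2 (0.639 ± 0.468 and 3.23 ± 1.27 CPM, 2.31 ± 0.54).

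**Figure D3:**
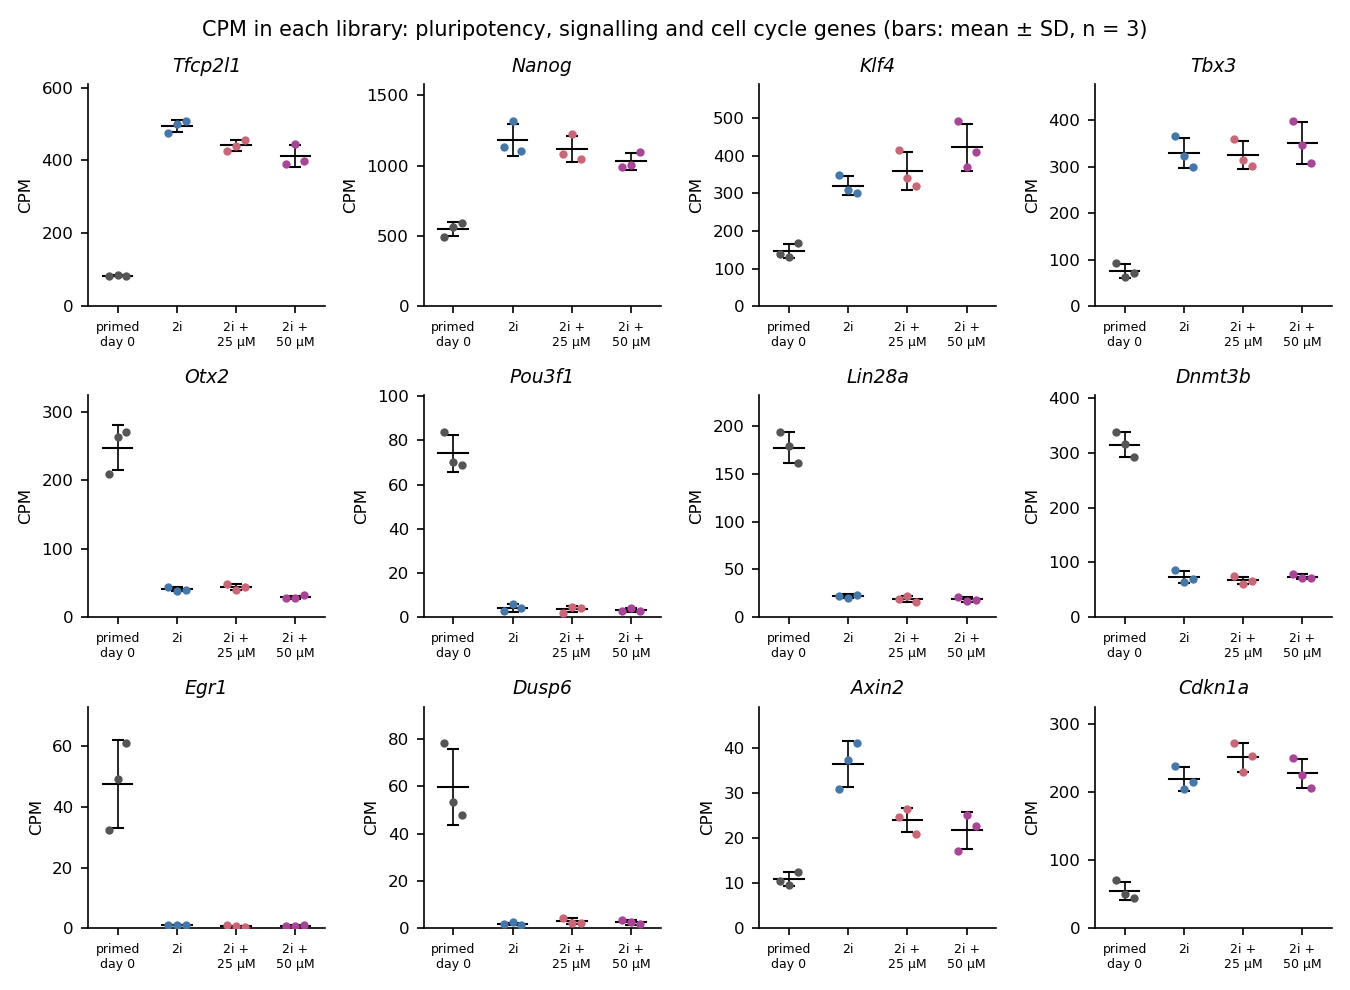
Level (CPM) of 12 genes in each of the 12 libraries, by group, with points for libraries and bars for mean ± SD. Naive factors and Cdkn1a are higher, and Otx2, Pou3f1, Lin28a, Dnmt3b, Egr1 and Dusp6 lower, in all 3 six-day groups than in primed cells; Axin2 is highest in 2i alone.

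Targets of the ERK pathway, the arm that MEK inhibition closes, were strongly reduced. Of 26 measured, 17 fell, 1 rose and 8 were not called, with a median of −0.87 and a mean of −1.92. The feedback inhibitors that ERK itself induces were among the steepest falls. Spry4, a Sprouty inhibitor of receptor signalling, had 26, 27.1 and 37.5 CPM in primed and 0.314, 0 and 0.142 CPM in 25 µM libraries. That is 569 counts against 3, a level 197-fold lower with an exact 95% interval of 67.2 to 960 that covers counting error only. Dusp6, the phosphatase that switches ERK off, had 78, 53.1 and 48 CPM in primed and 4.55, 2.11 and 2.27 CPM in 25 µM libraries (−4.32 ± 0.26), and Dusp4 had 422 counts against 3, 146-fold lower (49.7 to 713). Spry1 fell by 2.15 ± 0.22. Among the transcription factors that ERK induces at once, Egr1 had 32.3, 49.3 and 60.9 CPM in primed and 0.941, 0.651 and 0.568 CPM in 25 µM libraries (−6.01 ± 0.29). Etv4 fell by 4.42 ± 0.33 and Jun by 1.84 ± 0.23. Fos was low in both groups, at 2.51 ± 0.721 and 1.97 ± 0.551 CPM, and was not called. Ccnd1, which encodes cyclin D1 and is a target of several pathways, was the member that rose, from 136 ± 17.2 to 184 ± 16.3 CPM (0.43 ± 0.10).

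The immediate response to ERK runs in part through serum response factor, SRF, which binds the CArG box. A CArG box (its consensus on both strands) was found in the 300-base promoter windows, 250 bases before to 50 after the transcript start, of 535 of 32851 RefSeq transcripts (1.63%). Among the ERK targets with a window, it was found for Dusp5 and for Srf itself and not for the other 16 (10 lower, 6 not called), and 8 targets had no window here. The Dusp5 window is shown because it holds 2 adjoining matches, in capitals, which start 82 and 72 bases before the transcript start (RefSeq, GRCm38.p6, chr19:53528895-53529194, plus strand).
Dusp5: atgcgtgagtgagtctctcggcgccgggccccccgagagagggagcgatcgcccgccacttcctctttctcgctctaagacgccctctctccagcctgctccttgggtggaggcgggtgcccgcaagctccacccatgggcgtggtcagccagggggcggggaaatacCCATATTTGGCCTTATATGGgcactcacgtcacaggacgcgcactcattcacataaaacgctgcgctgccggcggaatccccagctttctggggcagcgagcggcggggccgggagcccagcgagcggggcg
Dusp5, a nuclear phosphatase of ERK, had 25.2, 12.8 and 14.8 CPM in primed and 3.29, 4.72 and 5.54 CPM in 25 µM libraries. All primed libraries were higher, with the one numbered 1 highest, and the log2 fold change was −1.95 ± 0.30 (edgeR adjusted p = 3.52e-05). Srf had 12.6, 28.2 and 29 CPM against 16.8, 15.5 and 10.9 CPM, the groups overlapped, and it was not called (−0.70 ± 0.34).

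Targets of Wnt and beta-catenin, the arm that GSK3 inhibition opens, moved in both directions, with 7 rises and 5 falls among the 16 measured and 4 not called. Axin2, a feedback inhibitor of the pathway and its most used reporter, had 10.4, 9.58 and 12.6 CPM in primed and 24.6, 26.4 and 21 CPM in 25 µM libraries, a log2 fold change of 1.14 ± 0.17 (edgeR adjusted p = 1.14e-05). Its mean in 2i alone was higher, at 36.4 ± 5.13 CPM, and 25 µM against 2i alone gave −0.60 ± 0.15 with an edgeR adjusted p of 0.0538, or 0.00372 with the replicate block. Notum, a secreted Wnt deacylase, rose by 1.57 ± 0.11, and Apcdd1, a membrane inhibitor of Wnt, by 2.34 ± 0.20. Cdx1, a caudal homeobox gene, rose from 3 to 144 counts, 46.1-fold higher (exact 95% interval 15.5 to 226). Sp5, a zinc finger factor, had 1.4, 0.504 and 0.935 CPM in primed and 1.25, 3.42 and 4.12 CPM in 25 µM libraries (1.61 ± 0.51, edgeR adjusted p = 0.0144). The groups overlapped at library 1, and the mean in 2i alone was 10.5 ± 3.37 CPM, with a log2 difference of 25 µM from 2i of −1.82 ± 0.35 (edgeR adjusted p = 0.0142, and 0.0524 to 0.0962 without 2i library 2 or 3 or 25 µM library 1 or 2). Lef1, a partner of beta-catenin, fell by 2.77 ± 0.34, and Ascl2 by 2.50 ± 0.30. The TCF/LEF motifs CTTTGAT and CTTTGTT, on both strands, were found in the windows of Sp5 and Tcf7l2 and not in those of the other 8 Wnt targets with a window, against 9.33% of all windows.

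The BMP pathway acts through SMAD factors on Id genes. Of 19 measured genes of the pathway, 5 rose, 7 fell and 7 were not called, with a median of 0.14 and a mean of −0.36. Bmp4, a ligand, had 294, 216 and 224 CPM in primed and 102, 72.6 and 71.3 CPM in 25 µM libraries (−1.58 ± 0.20, edgeR adjusted p = 3.24e-05). Its level at 25 µM lay between 42.5 ± 7.5 CPM in 2i alone and 172 ± 40.1 CPM at 50 µM. The difference from 2i alone was 0.95 ± 0.21 (edgeR adjusted p = 0.0602, and 2.62e-09 with the replicate block), and that of 50 µM from 25 µM was 1.07 ± 0.20 (edgeR adjusted p = 0.022, and 0.116 and 0.135 without 25 µM library 2 or 3). Of the inhibitors of DNA binding that BMP induces, Id1 had 127, 75.1 and 74.8 CPM against 4.86, 5.69 and 2.56 CPM (−4.42 ± 0.25). Id2 fell by 2.01 ± 0.25 and Id3 by 1.88 ± 0.34, while Id4 rose by 1.45 ± 0.20, as did the receptor gene Acvr1 by 1.31 ± 0.20. Dusp9, an ERK phosphatase on the X chromosome that is also a BMP target, fell by 2.28 ± 0.19.

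In the Nodal pathway 4 of 19 genes rose, 4 fell and 11 were not called, shares near those of all genes tested. Besides Nodal, Pcsk6, a convertase that matures its precursor, rose from 34.3 ± 2.54 to 104 ± 5.47 CPM (1.60 ± 0.11), while Skil, a repressor of SMAD activity, fell by 1.56 ± 0.13 and the antagonist Lefty1 by 2.33 ± 0.37. Of 20 genes of the LIF receptor and STAT3, 7 rose, 4 fell and 9 were not called, with a median of −0.03. Lifr, the receptor gene, was at 36.3 ± 1.22 and 35.6 ± 6.34 CPM and was not called. The STAT3 targets Tfcp2l1 and Klf4 were among the rises, and the kinase gene Pim3 (−1.25 ± 0.10), Junb (−1.42 ± 0.14) and the feedback inhibitor Socs3 (−0.35 ± 0.11) fell. In the Myc network, 9 of 20 genes fell, 3 rose and 8 were not called. Mycl rose by 1.07 ± 0.18. The count of 3 rises was 1 without primed library 2 or without 25 µM library 1.

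The DNA methylation genes named here moved in both directions. The de novo methyltransferases fell: Dnmt3b had 337, 316 and 292 CPM in primed and 74.8, 61.3 and 66.5 CPM in 25 µM libraries (−2.22 ± 0.11), Dnmt3a fell by 2.59 ± 0.13, and their cofactor Dnmt3l by 2.17 ± 0.12. Uhrf1, which brings the maintenance enzyme to newly copied DNA, had 108, 109 and 108 CPM in primed and 202, 200 and 176 CPM in 25 µM libraries (0.83 ± 0.09, edgeR adjusted p = 1.79e-07). In 2i alone Uhrf1 stood at 134 ± 6.62 CPM, and 25 µM was higher by 0.52 ± 0.09 (edgeR adjusted p = 0.0066, and 0.0584 without 2i library 3). Dnmt1, the maintenance enzyme, rose by 0.35 ± 0.10, and Hells, a chromatin remodeller of methylated regions, was not called (−0.08 ± 0.14). Of the enzymes that oxidise methylcytosine, Tet2 rose by 0.93 ± 0.12 and Tet1 was not called (−0.51 ± 0.19). Over the 23 genes of the methylation machinery, 6 rose, 5 fell and 12 were not called, shares near those of all genes tested.

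Imprinted genes, expressed from 1 parental copy, fell more often than they rose: 17 of 36 measured fell, 6 rose and 13 were not called, with a median of −0.39. H19, a long noncoding RNA, had 114, 133 and 112 CPM in primed and 3.61, 3.09 and 2.13 CPM in 25 µM libraries (−5.34 ± 0.27). Nnat, a membrane proteolipid gene, fell by 5.19 ± 0.27, Phlda2, a brake on placental growth, by 3.64 ± 0.20, and Snrpn, a spliceosome component, by 1.84 ± 0.11. Peg10, a retrotransposon-derived gene, had 175, 163 and 154 CPM in primed and 11.9, 16.6 and 15.3 CPM in 25 µM libraries (−3.49 ± 0.15). Plagl1 and Cd81, a tetraspanin (0.73 ± 0.09), were among the rises. Among Polycomb subunits, which silence developmental genes, 14 of 35 rose, 8 fell and 13 were not called. The ring-finger component Bmi1 rose by 2.18 ± 0.17 and the chromodomain subunit Cbx8 by 3.01 ± 0.31, while Phc1 fell by 1.27 ± 0.09 and Phf19, an accessory subunit, by 4.44 ± 0.36. Ezh2, the methyltransferase, was not called (0.04 ± 0.11).

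The 2-cell-like list holds genes of a rare, early-embryo-like state that appears in some cultured cells. Of 25 matched, 17 did not pass the low-count filter, 7 of them with no count in the 6 libraries, and of the 8 measured 7 fell and 1 was not called. Summed over all 25, the list stood at 20.5, 13.8 and 18.4 CPM in primed and 4.08, 6.18 and 6.11 CPM in 25 µM libraries, so the groups did not overlap. In 2i alone the sum was 20.7, 26.2 and 25.8 CPM and at 50 µM 1.41, 1.34 and 1.13 CPM. Zscan4c, which lengthens telomeres in bursts, had 3.73, 1.68 and 1.56 CPM in primed and 0.157, 0.813 and 0.284 CPM in 25 µM libraries. Its log2 fold change was −2.45 ± 0.59 (edgeR adjusted p = 0.00174), or −1.57 with an adjusted p of 0.06 without the libraries numbered 1. Tmem92 fell by 1.79 ± 0.55 and Sp110 by 1.34 ± 0.48. The Zscan4 copies, which are near identical, share reads, and the value of each is uncertain. The count of 7 falls was 4 without primed library 3 or 25 µM library 1, and 2 without the libraries numbered 1 or with only the 6 libraries in the fit.

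**Figure D4:**
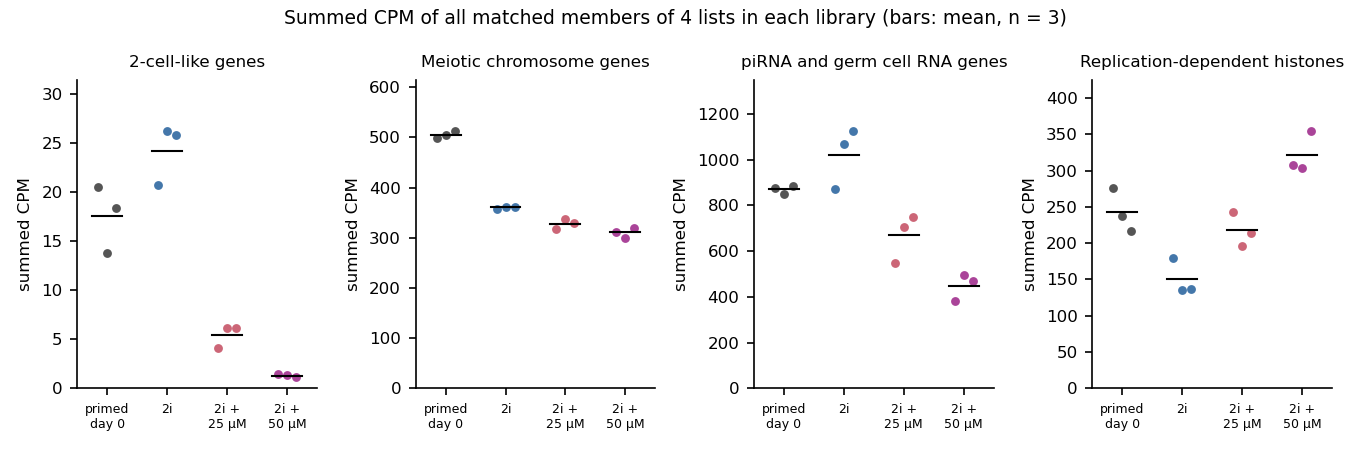
Summed level (CPM) of all matched members of 4 gene lists in each library, by group, with a bar at the group mean. The 2-cell-like sum at 25 µM, 4.08 to 6.18 CPM, lies below the primed and 2i libraries and above the 50 µM libraries, and the histone sum at 25 µM, 196 to 243 CPM, lies above 2i alone and below 50 µM.

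Meiotic chromosome genes showed 11 falls and 3 rises among 19 measured, with a median of −0.79, and their sum was 498 to 512 CPM in primed and 317 to 337 CPM in 25 µM libraries. Smc1b, the meiotic cohesin subunit, had 94.6, 93.3 and 97.2 CPM in primed and 29.8, 32.5 and 33.5 CPM in 25 µM libraries (−1.57 ± 0.10). Sycp3, of the axis of meiotic chromosomes, fell by 2.49 ± 0.25. Rec8, another cohesin subunit, rose by 1.54 ± 0.16 and Hormad1 by 0.78 ± 0.18. Of 23 genes of the piRNA pathway and germ cell RNA, 10 fell, 3 rose and 10 were not called. Mael fell by 2.74 ± 0.19, Piwil2, a Piwi protein, by 2.20 ± 0.24, and the helicase gene Ddx4 by 2.20 ± 0.28. The count of 3 rises was 1 without primed library 3 or 25 µM library 3. Dazl, an RNA-binding protein of germ cells, rose, with 37.9, 27.7 and 34.7 CPM in primed and 84.2, 141 and 155 CPM in 25 µM libraries (1.92 ± 0.29). The X-linked Rhox homeobox genes gave 4 falls and 0 rises among 7 measured. Rhox5 had 300, 354 and 361 CPM in primed and 181, 256 and 238 CPM in 25 µM libraries (−0.59 ± 0.13), and Rhox6 and Rhox9 fell by 2.76 ± 0.32 and 2.63 ± 0.28. Rhox5 stood at 431 ± 41.3 CPM in 2i alone, above both of these groups.

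The genes of the inhibited complex itself did not move together. Mre11a, which encodes the nuclease, had 61.4, 59.2 and 62.9 CPM in primed and 54.7, 51.7 and 45.3 CPM in 25 µM libraries. The groups did not overlap, and the log2 fold change was small, −0.28 ± 0.10 (edgeR adjusted p = 0.0344). The adjusted p was 0.0616 without primed library 1, 0.0862 without primed library 3, 0.0655 without 25 µM library 2 and 0.154 without 25 µM library 3. Rad50, the ATPase that tethers DNA ends, had 465, 400 and 413 CPM in primed and 244, 202 and 246 CPM in 25 µM libraries, a fall of 0.89 ± 0.09 (edgeR adjusted p = 8.45e-08). Its mean in 2i alone was 295 ± 16.9 CPM, and 25 µM was lower by 0.36 ± 0.09 (edgeR adjusted p = 0.0693, and 0.00112 with the replicate block). Nbn, the third subunit, had 27.2, 28.2 and 34 CPM against 30.4, 27.7 and 27.5 CPM and was not called (−0.06 ± 0.13). Over the 36 genes of the complex and of fork protection, 12 rose, 3 fell and 21 were not called, with a median of 0.16. The 3 falls were 1 without 25 µM library 3. Rbbp8, also called CtIP, which activates the nuclease at DNA ends, rose by 0.71 ± 0.13, and Zranb3, a fork-remodelling translocase, by 0.62 ± 0.13.

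Most called genes of DNA replication rose, by small amounts. Of 19 origin licensing genes, 9 rose, 2 fell and 8 were not called (median 0.24), and of 19 genes of origin firing and the replisome, 8 rose, 2 fell and 9 were not called (median 0.29). Cdc6, which loads the MCM helicase, had 79.3, 90.4 and 95.8 CPM in primed and 130, 124 and 133 CPM in 25 µM libraries (0.55 ± 0.09). Mcm2 and Mcm6, helicase subunits, rose by 0.38 ± 0.08 and 0.46 ± 0.10, and Mcm7 was not called (0.24 ± 0.12). Gins2, of the active helicase, rose by 0.53 ± 0.09 and Ticrr, an origin-firing factor, by 0.69 ± 0.09, while Dbf4, the activator of the firing kinase, fell by 0.45 ± 0.13. Cdt1, the licensing partner of Cdc6, had 273, 293 and 269 CPM against 335, 305 and 299 CPM and was not called (0.17 ± 0.08, edgeR adjusted p = 0.113). The 2 falls in each list were 0 or 1 without single libraries: for licensing without any one of the 6, for firing without primed library 1 or 2 or 25 µM library 2 or 3. Of 30 genes for polymerases, clamp and nucleotide supply, 9 rose, 2 fell and 19 were not called. Dut, which removes dUTP, rose by 0.46 ± 0.08 and Rrm2, of ribonucleotide reductase, by 0.47 ± 0.09. The 9 rises became 5 without primed library 1 or 25 µM library 2, and the 2 falls became 0 or 1 without primed library 1, 2 or 3 or 25 µM library 2 or 3.

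Of 19 Fanconi anaemia genes, which repair DNA crosslinks, 8 rose, 2 fell and 9 were not called, where 21.3% of all genes tested rose and 21.0% fell. Fancm, a translocase, rose from 33 ± 4.37 to 65.7 ± 3.09 CPM (0.99 ± 0.11), and Fanca, of the core complex, by 0.66 ± 0.11. The 8 rises were 4 without primed library 1 and 5 without primed library 3, and the 2 falls were 1 without primed library 2 or 25 µM library 1 or 2. Of 28 double-strand break repair genes, 7 rose, 3 fell and 18 were not called, a share of rises near that of all genes. Rad54l, a helper of strand exchange, rose by 0.45 ± 0.09 and Rnf8, a ubiquitin ligase at breaks, by 0.37 ± 0.10. Those 7 rises were 4 without primed library 2 or 25 µM library 3, and the 3 falls were 1 without primed library 3 or 25 µM library 2.

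Among genes that gate entry into S phase, 1 list rose more often than it fell and the other was balanced. Of 15 genes for D cyclins and inhibitors of cyclin-dependent kinases, 9 rose, 3 fell and 3 were not called, with a median of 0.47. The 9 rises were 6 without the libraries numbered 1. Cdkn1a, which encodes p21, had 70.4, 50.1 and 44.1 CPM in primed and 272, 230 and 254 CPM in 25 µM libraries (2.20 ± 0.13, edgeR adjusted p = 1.64e-10). Cdkn1b, which encodes p27, rose by 0.75 ± 0.09, while the imprinted inhibitor Cdkn1c fell by 3.03 ± 0.31 and Ccnd2, encoding cyclin D2, by 3.96 ± 0.51. Ccne1, encoding cyclin E1, had 264, 247 and 240 CPM in primed and 123, 127 and 134 CPM in 25 µM libraries (−0.96 ± 0.09). E2f1, the activator of S-phase genes, rose from 31.8 ± 3.23 to 62 ± 1.61 CPM (0.96 ± 0.13), and E2f8, a repressor of the same family, fell by 0.62 ± 0.14. In the E2F and cyclin E/A list as a whole, 4 of 16 rose, 4 fell and 8 were not called (median −0.07), shares near those of all genes tested. Of 30 G2/M and mitosis genes, 4 rose, 2 fell and 24 were not called, with Pttg1, or securin, up by 0.61 ± 0.12 and Hmmr down by 0.52 ± 0.11. The 2 falls became 8 without 25 µM library 1 and 1 without 25 µM library 3, and the 4 rises became 2 without primed library 2 or 25 µM library 1. Those falls were also 8 without the libraries numbered 1. They were 4 or 5 with other scaling of the libraries, other low-count filters, DESeq2 or only the 6 libraries in the fit.

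Targets of p53, the transcription factor of the DNA damage response, rose in 14 of 30 cases, fell in 6 and were not called in 10 (median 0.25). Besides Cdkn1a, Tigar, which lowers glycolytic flux, rose by 0.83 ± 0.09 and Mdm2, the ligase that removes p53, by 0.53 ± 0.09. Gadd45a, a stress sensor, fell from 52.8 ± 11.6 to 9.09 ± 0.405 CPM (−2.54 ± 0.16) and Ddit4, an inhibitor of mTORC1, by 1.18 ± 0.11. Trp53 itself was at 98.1 ± 7.77 and 100 ± 17 CPM and was not called. In 2i alone against primed, 11 of the 30 p53 targets rose and 6 fell, where 40.4% of all genes tested were called. Between 25 µM and 2i alone, 0 of the 30 were called, beside 0.937% of all genes tested. With the replicate block, 1 was higher and 1 lower. The log2 difference of Cdkn1a between 25 µM and 2i alone was 0.19 (edgeR adjusted p = 0.544). Of 24 apoptosis regulators, 5 rose, 6 fell and 13 were not called, shares near those of all genes tested. Bcl2l11, the death activator Bim that ERK holds down in many cells, fell by 1.91 ± 0.14, and Casp8 rose by 1.54 ± 0.31. The 5 rises were 3 without primed library 2 or 25 µM library 1.

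Replication-dependent histone genes, whose mRNAs end in a stem-loop and mostly lack a poly(A) tail, were mostly not called between 25 µM and primed cells. Of 62 matched, 42 passed the filter, and 1 rose, 6 fell and 35 were not called, with a median of −0.26. The 6 falls were 3 without primed library 2 or 25 µM library 2 or 3. Their sum was 276, 237 and 217 CPM in primed and 243, 196 and 214 CPM in 25 µM libraries, and the groups overlapped. In the other groups, the sum was 136 to 179 CPM in 2i alone and 304 to 354 CPM at 50 µM, and 2i alone against the same primed libraries gave 20 falls, beside 20.4% of all genes lower in that comparison. These copies are close in sequence, and oligo-dT priming reaches only their polyadenylated forms, so single values are uncertain.

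Targets of the integrated stress response, the programme through which ATF4 raises amino acid supply, were lower: 26 of 32 measured fell, 2 rose and 4 were not called, with a median of −1.0. Chac1, which degrades glutathione, had 44.3, 29.6 and 26.3 CPM in primed and 5.8, 3.74 and 1.85 CPM in 25 µM libraries (−3.15 ± 0.45). Trib3, a pseudokinase induced by ATF4, fell by 2.08 ± 0.24, Ddit3, or CHOP, by 1.58 ± 0.18, Mthfd2, of mitochondrial folate metabolism, by 1.34 ± 0.12, and Psat1, of serine synthesis, by 1.18 ± 0.10. Atf4 itself fell by 0.90 ± 0.25 (edgeR adjusted p = 0.0148), with an adjusted p of 0.0508 without primed library 1 and 0.0505 without 25 µM library 2. The 2 members that rose were Asns, asparagine synthetase, from 239 ± 24.6 to 480 ± 11.2 CPM (1.01 ± 0.09), and Cth, which makes cysteine (0.48 ± 0.12). Among aminoacyl-tRNA synthetases, which charge tRNAs, 17 of 20 fell, 1 rose and 2 were not called. Sars fell by 1.37 ± 0.13 and Lars by 0.92 ± 0.08, and the exception was Qars (0.29 ± 0.08).

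Ribosome biogenesis factors fell in 19 of 40 cases, with 1 rise, which was 0 without primed library 2 or 25 µM library 1 or 3, and 20 not called (median −0.27). Heatr1 fell by 0.53 ± 0.08 and Wdr74 by 0.61 ± 0.10, both factors of pre-rRNA processing. Ribosomal protein genes, in contrast, were mostly not called: 4 of 79 rose and 2 fell, and 73 were not called, with a median of 0.03. Of the 4, Rpl13a had the largest log2 fold change and rose from 467 ± 38.8 to 717 ± 27.2 CPM (0.62 ± 0.09), while Rpl22l1, a paralog of Rpl22, fell by 0.39 ± 0.11. The 2 falls were 1 without primed library 2 or 25 µM library 2 or 3. Many of these genes have processed copies, and their single values are uncertain.

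Large fold changes lay in betaine breakdown, where betaine from choline passes a methyl group to homocysteine and is then oxidised. Over the 26 measured genes of betaine, methionine and cysteine metabolism, 8 rose, 8 fell and 10 were not called, with a median of 0.01 and a mean of 0.49. Bhmt, the methyltransferase, had 0.311, 0.168 and 0.312 CPM in primed and 16.3, 15.8 and 17.8 CPM in 25 µM libraries. No primed library came near a 25 µM library, and the log2 fold change was 5.87 ± 0.35 (edgeR adjusted p = 1.56e-11). Its paralog Bhmt2 had 0.155, 0.672 and 0.467 CPM against 11.8, 14.8 and 14.2 CPM (4.93 ± 0.37). Dmgdh, the dehydrogenase of the next step, had 0.311, 0.168 and 0.623 CPM against 22, 17.9 and 21.2 CPM (5.70 ± 0.30). In 2i alone, Bhmt, Bhmt2 and Dmgdh stood at 16, 13.9 and 18.7 CPM.

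Those 3 genes are neighbours on chromosome 13. In the GRCm38 annotation, Bhmt lies on the minus strand at chr13:93616675-93637961, Bhmt2 on the minus strand at chr13:93655720-93674302, and Dmgdh on the plus strand at chr13:93674433-93752833. Bhmt2 and Dmgdh thus start head to head, with 130 bases between their annotated starts. The RefSeq promoter window of Dmgdh is shown because it spans that shared stretch, in capitals (GRCm38.p6, chr13:93674186-93674485, plus strand).
Dmgdh: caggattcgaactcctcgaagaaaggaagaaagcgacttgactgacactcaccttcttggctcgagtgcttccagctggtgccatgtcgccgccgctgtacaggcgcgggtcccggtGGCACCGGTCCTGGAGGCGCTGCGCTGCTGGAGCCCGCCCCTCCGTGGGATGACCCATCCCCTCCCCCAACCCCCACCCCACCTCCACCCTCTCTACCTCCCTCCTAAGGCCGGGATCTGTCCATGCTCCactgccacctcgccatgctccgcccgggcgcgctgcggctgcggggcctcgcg
Of the neighbouring genes, Jmy and Homer1 were not called, and Arsb, at chr13:93771630-93943016, had too few counts to be tested. Jmy, at chr13:93430101-93499808, was at 21.2 ± 5.28 and 22.8 ± 2.48 CPM (0.10 ± 0.16), and Homer1, at chr13:93299635-93405129, at 29.8 ± 1.55 and 29.4 ± 1.46 CPM (−0.02 ± 0.11). Elsewhere in the pathway, Cbs, which starts cysteine synthesis, rose by 0.89 ± 0.12, while Gnmt, which methylates glycine, fell by 2.18 ± 0.38 and Gldc, of glycine cleavage, by 0.88 ± 0.11. Srm, the spermidine synthase, fell by 0.65 ± 0.08.

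Glycolytic and hypoxia-inducible genes were lower in 20 of 38 cases, with 4 rises and 14 not called (median −0.40). Pdk1, the kinase that keeps pyruvate out of mitochondria, had 132, 148 and 146 CPM in primed and 20.5, 21.5 and 24.4 CPM in 25 µM libraries (−2.68 ± 0.13). Slc2a1, the glucose transporter, fell by 1.45 ± 0.18, Pfkl, of phosphofructokinase, by 1.15 ± 0.12, and Ldha, of lactate dehydrogenase, by 0.59 ± 0.09. Hk1, a hexokinase, rose by 1.07 ± 0.12. The 4 rises were 2 without primed library 1 or 25 µM library 3. Of 68 nuclear genes for respiratory chain subunits, 16 rose, 2 fell and 50 were not called, with a median of 0.11. That share of rises is near the 21.3% of all genes tested. Cox5a, of cytochrome oxidase, rose from 589 ± 51.2 to 1017 ± 31.4 CPM (0.79 ± 0.09) and Cox6b1 by 0.62 ± 0.09. The 16 rises were 10 without primed library 1 or 25 µM library 3, and the 2 falls were 0 or 1 without any one of the 6 libraries. Of 8 measured mitochondrially encoded genes, mt-Nd6 fell (−0.58 ± 0.13) and 7 were not called.

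Lysosome and autophagy genes rose in 17 of 39 cases, with 5 falls and 17 not called (median 0.20). Mitf, a transcription factor of lysosomal genes, had 11.3, 16 and 15 CPM in primed and 65.9, 73.9 and 69.4 CPM in 25 µM libraries (2.31 ± 0.14). Npc2, a cholesterol carrier of the lysosome, rose by 1.32 ± 0.08 and Ctsz, a cathepsin, fell by 1.15 ± 0.15. NRF2 targets of the antioxidant response gave 9 rises, 7 falls and 9 not called among 25, with the glutathione transferase Gsta4 up by 0.99 ± 0.10 and Nqo1, a quinone reductase, up by 1.21 ± 0.13. Their 7 falls were 2 to 4 without primed library 2 or 3 or 25 µM library 2 or 3. In the list of cholesterol synthesis and uptake 5 of 28 genes rose, 8 fell and 15 were not called. The desaturase gene Scd2 rose by 0.96 ± 0.10, and Dhcr7, of cholesterol synthesis, fell by 0.80 ± 0.16. Those 8 falls were 4 or 5 without the same 4 libraries, each left out in turn. ER chaperone genes gave 7 rises, 1 fall and 14 not called among 22. The lectin chaperone Calr rose by 0.51 ± 0.09, and Herpud1, of ER-associated degradation, fell by 1.36 ± 0.16. Their 1 fall was 2 without primed library 1 and 3 without 25 µM library 2.

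Genes of antigen presentation and interferon fell as a group: 17 of 28 measured fell, 5 rose and 6 were not called, with a median of −1.15. Psmb8, a catalytic subunit of the immunoproteasome, had 9.64, 10.6 and 7.32 CPM in primed libraries and no count in any 25 µM library, at least 59.7-fold lower against a floor of 3 counts over the group. Psmb10, another such subunit, had 85, 90.4 and 81.6 CPM against 19.4, 20.5 and 22.9 CPM (−2.03 ± 0.11). Irf1, an interferon regulatory factor, fell by 1.75 ± 0.11, and the class I gene H2-K1 by 1.16 ± 0.20. B2m, the shared light chain of class I molecules, rose by 0.54 ± 0.13, as did Ly6e (0.88 ± 0.14) and Oas1a, a sensor of double-stranded RNA (1.41 ± 0.25). Ly6 and other GPI-anchored surface genes rose in 8 of 15 cases, fell in 3 and were not called in 4 (median 0.64). Besides Ly6a, Alpl, the alkaline phosphatase used to stain pluripotent colonies, rose from 47 to 203 CPM (2.11 ± 0.09), and Ly6g6c fell by 2.74 ± 0.37.

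Cell adhesion and polarity genes fell in 18 of 29 cases, rose in 4 and were not called in 7, with a median of −0.52. Cldn6, a tight junction claudin, had 102, 104 and 92.2 CPM in primed and 13, 12 and 8.52 CPM in 25 µM libraries (−3.16 ± 0.15). Pkp2, a desmosome plaque protein, fell by 2.85 ± 0.15, and Epcam by 1.97 ± 0.11, from 304 ± 8.4 to 77.6 ± 7.8 CPM. The desmosomal cadherin gene Dsg2 rose by 1.33 ± 0.13 and the integrin gene Itgb5 by 1.44 ± 0.14. Cdh1, E-cadherin, was at 828 ± 78 and 820 ± 30.5 CPM and was not called. Basement membrane genes gave 6 rises, 7 falls and 8 not called among 21. Nid1, a linker of laminin and collagen, rose from 35.1 ± 4.32 to 176 ± 21.2 CPM (2.32 ± 0.11) and the laminin chain gene Lamb2 by 1.12 ± 0.17. Lamb1, another laminin chain, had 116, 102 and 97.5 CPM against 15.4, 13.5 and 13.6 CPM (−2.89 ± 0.14). Among CLK kinases and SR splicing factors, 6 of 31 rose, 2 fell and 23 were not called, a share of rises near that of all genes tested. Clk3 and Clk1, kinases of SR proteins, rose by 0.96 ± 0.11 and 0.73 ± 0.12. Their 2 falls were 1 without 25 µM library 2.

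Markers of other cell types were few in number and mixed in direction. The 9 trophoblast markers summed to 254 to 437 CPM in primed and 121 to 156 CPM in 25 µM libraries. Of these, 1 had no count at 25 µM. Counts fell in Krt18 (2182 to 63), Krt8 (1250 to 52), Krt7 (146 to 25) and Hand1 (35 to 2). Tfap2c changed little (2470 and 2357), and Eomes (84 and 117) and Gata3 (83 and 121) were higher. The sum of 9 primitive endoderm markers was 65.7 to 145 and 33.5 to 38.1 CPM, and Col4a1 fell most (1314 to 167 counts). Gata4 (32 and 26), Gata6 (37 and 22), Dab2 (64 and 43), Foxa2 (14 and 8) and Sox7 (5 and 1) were lower. Lama1 (328 and 385), Pdgfra (10 and 29) and Sox17 (17 and 22) were higher. Primed library 1 was the highest of the 6 in Krt8, Krt18, Krt7, Col1a1, Col1a2 and Col4a1, and the part of such cells in the falls of keratins and collagens was not tested. Col4a1, a basement membrane collagen, had 108, 45.6 and 54.1 CPM in primed and 10.5, 7 and 8.09 CPM in 25 µM libraries. Col1a1, a fibroblast collagen, had 41.3, 16.8 and 18.2 against 2.04, 1.46 and 1.85 CPM. The 12 fibroblast markers, of which 3 had no count in primed and 2 none in 25 µM libraries, summed to 158 to 297 and 192 to 202 CPM, most of it from Vim, which stem cells also express (159 ± 52.2 and 185 ± 5.87 CPM, not called). In the longer fibroblast list, 8 of 16 measured fell, 3 rose and 5 were not called, with Timp3 down by 4.11 ± 0.34 and the fibronectin gene Fn1 up by 1.03 ± 0.09. In the list of trophoblast factors and keratins, 8 of 16 fell, 2 rose and 6 were not called. Tfap2a rose by 3.21 ± 0.25, and Fgfr2, a receptor of FGF4, fell by 4.31 ± 0.35. Of 8 endoderm markers measured, 1 rose, 2 fell and 5 were not called.

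Mesoderm and primitive streak markers leaned upward by number, with 7 rises, 3 falls and 2 not called among 12 measured (median 1.30), but not in summed level. Over all 23 matched, the sum was 326, 243 and 258 CPM in primed and 220, 209 and 212 CPM in 25 µM libraries. The 7 defining markers were at low level. Their sum was 7.06 to 9.35 CPM in primed and 18.7 to 24.2 CPM in 25 µM libraries, and none was without a count. Mesp1 (6 and 5 counts) and Tbx6 (6 and 2) did not rise, while the rest of the 7 had more counts at 25 µM. Besides Meis2 and Cdx1, Nkx1-2, a homeobox gene of the caudal epiblast, went from 1 to 134 counts, 129-fold higher (exact 95% interval 22.7 to 5124), and Gsc, the homeobox gene goosecoid, rose from 0.739 ± 0.582 to 7.61 ± 0.343 CPM (3.32 ± 0.38). Fgf17 had 135 counts in primed and 3 in 25 µM libraries, 46.8-fold lower (15.7 to 230). Of 15 neural markers, 4 rose, 7 fell and 4 were not called. Ncam1, an adhesion molecule, rose by 1.83 ± 0.11 and Mapt, or tau, by 1.05 ± 0.12, while Gap43, a growth cone protein, fell by 5.98 ± 0.35 and Elavl3, an RNA-binding protein of neurons, by 1.78 ± 0.17. The sum of the 6 neuroectoderm markers was 113 to 121 CPM in primed and 90.0 to 90.7 CPM in 25 µM libraries, most of it from Tubb3. Counts of Tubb3 (1728 to 1291), Map2 (120 to 41), Pax6 (51 to 11) and Neurog2 (1 to 0) were lower at 25 µM. Those of Sox1 (14 to 73) and Nes (302 to 350) were higher.

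Far fewer genes set 25 µM cells apart from cells in 2i alone than from primed cells, in a test that shares the 25 µM libraries with the one above. Of 13230 genes, 124 were called (0.937%): 60 higher (0.454%) and 64 lower (0.484%) at 25 µM. These counts, and the fits below that leave out libraries, do not use the pairing of these groups by replicate number. With the replicate block the counts were 328 higher (2.48%) and 299 lower (2.26%). Without the libraries numbered 1, and without the block, they were 58 and 82. Leaving out any one of the 6 libraries lowered the 60 to between 10 and 39, and leaving out any but 2i library 1 lowered the 64 to between 19 and 24. For comparison, 5346 genes (40.4%) were called between 2i alone and primed and 5859 (44.3%) between 50 µM and primed, both against the same primed libraries. Among the lists, 0 of 24 naive, 0 of 27 formative and 0 of 26 ERK target genes were called between 25 µM and 2i alone. With the block, 1 naive factor, 2 formative factors and 1 ERK target were. Of the 8 measured 2-cell-like genes 4 were lower (7 with the block), of 23 piRNA and germ cell genes 3 (7 with the block), and of 42 histone genes 4 were higher (8 with the block).

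Rpl13a, Hist1h2ae, Hist1h4i and Cdt1 had lower means in 2i alone than in primed cells. At 25 µM they stood near the primed level or above it. Rpl13a, a ribosomal protein gene, had 497, 482 and 423 CPM in primed and 698, 748 and 706 CPM in 25 µM libraries, with 369 ± 12.5 CPM in 2i alone and 977 ± 90.5 CPM at 50 µM. All 25 µM libraries were above all primed ones, and the level was above 2i alone by 0.96 ± 0.09 (edgeR adjusted p = 2.82e-06). Hist1h2ae, a histone H2A gene, had 15.2, 13.3 and 12.5 CPM in primed and 15.5, 16.4 and 12.8 CPM in 25 µM libraries, and the groups overlapped. Its mean in 2i alone was 6.37 ± 1.47 CPM, lower than 25 µM by 1.22 ± 0.19 (edgeR adjusted p = 0.00209), and at 50 µM it was 26.9 ± 3.24 CPM. Hist1h4i, a histone H4 gene, followed the same order, with 8.89, 4.98, 10.8 and 18.2 CPM in primed, 2i, 25 µM and 50 µM cells. Mybl2, a cell-cycle transcription factor, was above 2i alone by 0.58 ± 0.08 (edgeR adjusted p = 0.00149). Rpl13a, Hist1h2ae, Hist1h4i and Mybl2 were still called against 2i alone without any one of the 6 libraries. Cdt1 was 221 ± 12.8 CPM in 2i alone, below 25 µM by 0.50 ± 0.08 (edgeR adjusted p = 0.00639, and 0.0584 without 2i library 3).

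Further genes higher at 25 µM than in 2i alone were called only with all libraries or most of them. E2f1 (0.57 ± 0.12), E2f8 (0.68 ± 0.15), Dab1, an adaptor of reelin signalling (1.08 ± 0.23), Pkd2, a cation channel of cilia (0.80 ± 0.16), and the neural marker Ncam1 (0.44 ± 0.10) lost their calls in 5 of the 6 fits that left out a library. Clk3 (0.52 ± 0.11), Clk1 (0.49 ± 0.12) and Mecr, of mitochondrial fatty acid synthesis (0.80 ± 0.19), lost them in 6 of 6, Mapt (0.57 ± 0.12) in 4 and Gins2 (0.45 ± 0.09) in 3. Each of these 10 genes was also called with the replicate block. Of 19 licensing genes 2 were higher than in 2i alone, or 7 with the block. Of 79 ribosomal protein genes 1, Rpl13a, was higher, or 16 with the block, and 0 were lower in either fit.

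**Figure D5:**
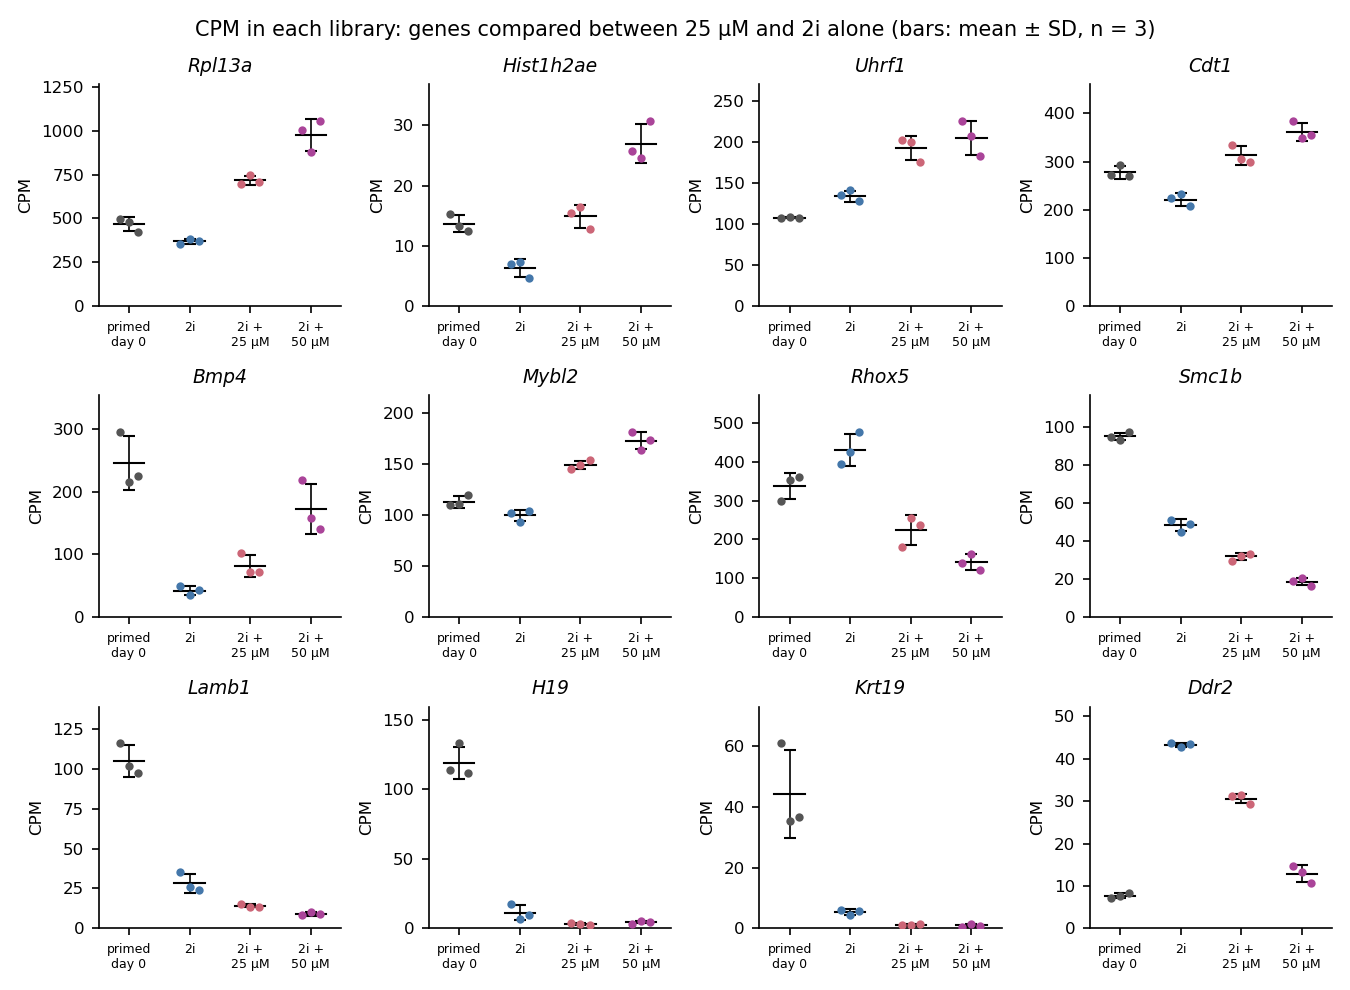
Level (CPM) of 12 genes in each library, by group, with points for libraries and bars for mean ± SD. Rpl13a, Hist1h2ae and Cdt1 fall from primed to 2i and are higher at 25 µM than in 2i alone; Rhox5 is higher in 2i alone than in primed cells and lower at 25 µM; Lamb1, H19 and Krt19 are lowest in the inhibitor groups.

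Other genes were lower at 25 µM than in 2i alone. Rhox5 was lower than in 2i alone by 0.94 ± 0.13 (edgeR adjusted p = 0.00149), Lamb1, at 28.3 ± 6.01 CPM in 2i, by 1.00 ± 0.15 (edgeR adjusted p = 0.00164), and Smc1b by 0.60 ± 0.11 (edgeR adjusted p = 0.00671). Rhox5, Lamb1 and Smc1b were called without any one of the 6 libraries. Krt19, at 5.3 ± 0.909 CPM in 2i alone, was lower at 25 µM by 2.09 ± 0.37 (edgeR adjusted p = 0.00858, and 0.0547 without 25 µM library 2). H19, at 11.3 ± 5.46 CPM in 2i alone, was lower by 1.94 ± 0.33 (edgeR adjusted p = 0.0134, and 0.064 and 0.0826 without 25 µM library 2 or 3). Ap3b2, an adaptor subunit of neurons, was 16.9 ± 4.46 CPM in 2i alone and 8.34 ± 0.473 CPM at 25 µM, beside 8.29 ± 0.964 CPM in primed cells, and its call against 2i alone was lost in 5 of 6 such fits.

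Between the doses, 24 genes were higher (0.181%) and 129 lower (0.975%) at 50 than at 25 µM, 153 in all (1.16%), or 168 (1.27%) and 374 (2.83%) with the replicate block, since the numbers pair these groups too. Without the libraries numbered 1 the counts were 47 and 191. The 24 became 46 without 25 µM library 1 and 6 to 13 without 25 µM library 2 or 3 or 50 µM library 1 or 3, and the 129 became 32 to 80 without any library but 25 µM library 1. Several large rises over primed cells were smaller at the higher dose. Ly6a was 156 ± 26.8 CPM at 50 µM, below 25 µM by 0.88 ± 0.13 (edgeR adjusted p = 0.00199), and Crxos was lower by 0.57 ± 0.09 (edgeR adjusted p = 0.00241). Ppp2r2c, a phosphatase subunit, had a mean of 9.05 CPM in primed, 90 ± 7.44 CPM at 25 µM and 38.1 ± 6.37 CPM at 50 µM, a difference between the doses of −1.24 ± 0.12 (edgeR adjusted p = 6.93e-06). Bhmt was 5.32 ± 1.78 CPM at 50 µM, a log2 difference of −1.63 ± 0.21 (edgeR adjusted p = 0.000162). Its neighbours Bhmt2 (−0.38 ± 0.22) and Dmgdh (−0.52 ± 0.16) were not called, though Dmgdh was with the block (adjusted p = 0.0323).

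Ddr2, a collagen receptor, rose against primed and was lower again at the higher dose. It had 7.15, 7.57 and 8.26 CPM in primed and 31.1, 31.4 and 29.3 CPM in 25 µM libraries (1.99 ± 0.14), with no overlap, and 12.9 ± 1.92 CPM at 50 µM, lower than 25 µM by 1.24 ± 0.13 (edgeR adjusted p = 1.14e-05). Cth was lower at 50 µM by 0.90 ± 0.12, Ddit4 by 0.79 ± 0.12, Cbs by 0.78 ± 0.12 and Smc1b by 0.76 ± 0.12, and each of these calls between the doses, with those of Ly6a, Crxos, Ppp2r2c, Bhmt and Ddr2, held without any one of the 6 libraries. The call of Otx2, lower by 0.61 ± 0.12, was lost in 3 of those 6 fits, that of Rpl13a, higher by 0.45 ± 0.09, in 4, and that of Hist1h2ae, higher by 0.85 ± 0.16, in 2. Tfcp2l1, Nanog, Dnmt3b and Egr1 were not called between the doses, with log2 differences of −0.10 ± 0.08, −0.12 ± 0.10, 0.14 ± 0.11 and 0.35 ± 0.55.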

How the data were processed

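Total RNA from R1 mouse embryonic stem cells was made into libraries with a kit that reads the 3′ end of each mRNA (QuantSeq FWD) and sequenced on a NextSeq 550, per the labels' protocols. The authors deposited whole-number counts per gene for each library, and their processing notes name FastQC, STAR, GRCm38/mm10 and DESeq2 1.32.0; no counting tool, strand setting or handling of molecular identifiers is given there. Each table held 56691 mouse gene IDs, of which 52073 matched a GENCODE vM21 symbol (98.4% of counts), and 114 spike-in features with 2 counts in all, which were left out. Groups came from the sample labels.

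Counts of all 12 libraries entered 1 fit with edgeR 4.0.16 in R 4.3.3 (filterByExpr, TMM factors, robust quasi-likelihood F test, 13230 genes tested, Benjamini-Hochberg adjustment over all of them, called at an adjusted p below 0.05). The SE of a log2 fold change was obtained as |log2 fold change| over the root of its F statistic. Principal components used 1000 genes and log2 CPM with a prior count of 2. In data simulated for the comparison with primed cells over 12848 genes, 76.5% of 98 genes changed 2-fold and 94.9% of 98 changed 4-fold were recovered, and 6.15% of calls were false. Only those genes were changed, up or down, and no library was set apart. The rates need not hold in the data, where 42.3% of genes were called and libraries numbered 1 stood apart.

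Same-numbered libraries were compared by the correlation of their deviations from the group means over 5000 genes. It was 0.65, 0.51 and 0.42 for 2i alone with 25 µM and 0.61, 0.30 and 0.38 for 25 with 50 µM, each above the threshold of 0.1, so these groups were treated as paired by number.

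Named genes were the 12 largest rises and falls averaging 3 or more log2 CPM with libraries that did not overlap, the 6 largest differences in CPM each way, the 6 largest rises and falls against 2i alone, 2 per direction in each list, and chosen regulators; other list members named were chosen after their values were seen, and 1 gene that the rule takes in is not reported here. The 50 lists matched 1376 genes, and 3 entries had no match. The comparison and the lists were chosen with earlier results of these data known. Ratios of genes with 1 to 3 counts have exact 95% intervals, and bounds for genes at 0 use a floor of 3 counts over the group; both cover counting error only. Alternatives were DESeq2 1.42.0 with its size factors, limma 3.58.1 (voom), library totals alone, other low-count filters, the replicate block, the 6 libraries alone and each library left out; leaving out all 4 libraries numbered 1 was added after seeing the data.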

Additional observations from a re-analysis of the deposited data

How the results depend on the processing

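Between 25 µM and primed cells, the 2822 higher and 2772 lower genes stayed within 1.5 times in all 15 alternatives: from 2436 to 3310 higher and from 2461 to 3233 lower, with 47.2% to 50.6% of calls higher against 50.4%. Of the 5594 calls, 4696 (without 25 µM library 2) to 5590 (replicate block) were kept in the same direction. In that comparison the replicate numbers were not treated as pairing the libraries. Same-numbered primed and 25 µM libraries correlated at 0.41, 0.32 and −0.05, and primed library 3 correlated best, at 0.34, with 25 µM library 2. With the replicate block, 3310 genes were higher and 3233 lower. The block moved counts by over 1.5 times in the lists named next. Falls went from 4 to 7 among LIF receptor and STAT3 genes, from 3 to 5 in the MRE11 complex and fork protection list, and from 2 to 9 in the G2/M list. Rises went from 4 to 9 among ribosomal proteins, from 1 to 2 among ribosome biogenesis factors and from 0 to 1 among mitochondrially encoded genes. In the CLK and SR list, rises went from 6 to 11 and falls from 2 to 4, and in the ER chaperone list from 7 to 11 and from 1 to 3.

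The smaller comparisons moved more. Against 2i alone, the 60 higher and 64 lower genes were 328 and 299 with the replicate block, 113 and 155 with no low-count filter, and 10 to 39 and 19 to 62 when 1 library was left out; with library totals alone, 36 were higher. For 50 against 25 µM, the 24 higher and 129 lower genes were 168 and 374 with the replicate block, 71 and 258 with no filter, 6 to 46 and 32 to 157 when 1 library was left out, and 47 were higher without the libraries numbered 1. The cause of these moves was not tested. Blocked values that change a call of a gene or list named for these 2 comparisons stand beside it in the report.

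Of 231 named genes measured, 206 kept their direction and side of the threshold against primed in every alternative, 24 lost the call in at least 1, 1 (Cdt1, adjusted p = 0.0347 with the block) gained it, and 0 reversed. Of 100 list counts, 69 stayed within 1.5 times throughout. Depth limits genes of a few counts, such as the 2-cell-like genes.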

Other observations

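Some interferon-inducible genes lay near the counting floor at 25 µM, and these were chosen after their values were seen. Gbp2, a guanylate-binding protein induced by interferon, had 17.6, 13.8 and 14.5 CPM in primed and 0.157, 0 and 0 CPM in 25 µM libraries, 288 counts against 1. Isg15, a ubiquitin-like modifier, had 80 counts in primed and 1 in 25 µM libraries, 83.2-fold lower (exact 95% interval 14.5 to 3329), and Oasl2 had 47 and 2, 24.5-fold lower (6.4 to 208). Zbp1, a sensor of nucleic acids, had 42 and 3, 14.6-fold lower (4.66 to 73.5).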
